A study of Mus musculus with 6 samples.

Results

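Laminins are the cross-shaped glycoproteins that start the assembly of basement membranes. Each is a trimer of an alpha, a beta and a gamma chain. The alpha chain carries the globular domains at its far end that bind integrins and dystroglycan on the cell surface, and the short arms of the chains join neighbouring laminins into a sheet. In skeletal muscle the basement membrane wraps each fibre, and satellite cells, the stem cells of muscle, lie between this sheet and the fibre.

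The 9 genes described here encode laminin chains. They are Lama1 to Lama5 (alpha chains), Lamb1 to Lamb3 (beta chains) and Lamc1 (a gamma chain). They were taken by symbol, and all 9 were found among 27366 features of the deposited table. All 9 passed the filter for testing, a mean of at least 1 scaled read over the libraries. Lamc3, another gamma chain, is given beside them.

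RNA was sequenced from mouse skeletal muscle satellite cells after 4 days of growth culture with 20% serum and basic FGF added. The genotype labels are control and ko, with 3 libraries each, and the titles of the ko libraries read Islr knockout. The product of Islr is a secreted leucine-rich repeat protein. Cells were sorted on whether Islr was present, per the design text. The labels used here name neither the deleted part of Islr nor a Cre driver, nor the age or sex of the mice. They also do not tie the libraries of 1 group to different animals or cultures. The p-values therefore measure the spread among 3 libraries a group, which may be technical.

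Libraries held 16456917 to 20531276 reads on genes, of which 11426 to 19508 (0.056% to 0.097%) fell on the 9 laminin genes. Values are scaled reads, that is, reads divided by the size factor of the library, and 1 read was worth 0.837 to 1.165 scaled reads. Islr itself did not follow the labels. It stood at 181.1, 12.8 and 1579 scaled reads in control 1, 2 and 3 and at 256.7, 7.38 and 10.9 in knockout 1, 2 and 3. The library labelled knockout 1 was therefore above the library labelled control 2, which was level with knockout 2 and 3 (11 reads beside 8 and 13). In Islr level both went against their labels. The deleted part of Islr is not named, and the genotype of these libraries was not tested. Below, "control" and "knockout" mean the labels only. Markers of the labelled cell type were present throughout: Pax7, the transcription factor of satellite cells, ran from 1233 to 2729 and Myod1, a factor of committed myoblasts, from 18888 to 33818. Myog, a factor of differentiating myoblasts, differed far more. It stood at 43370, 417.2 and 43261 in control 1 to 3 and at 37228, 1998 and 5737 in knockout 1 to 3.

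Sequences just before the RefSeq start sites are shown for 3 of the genes, chosen by how they varied over libraries. Lama2 and Lama5, the most abundant alpha chains, had opposite orders of replicate numbers in both groups, and Lamb3 differed most between replicate numbers. Promoter windows were at hand for 5 of the 9 genes (RefSeq, GRCm38.p6). The windows shown are chr10:27616943-27617192 (minus strand, Lama2), chr2:180225860-180226109 (minus strand, Lama5) and chr1:193301744-193301992 (plus strand, Lamb3). They are written 5′ to 3′ up to the start site or the first annotated exon base. The Lama2 window lies within the span that GENCODE gives the gene, as does that of Lamb3, since GENCODE holds transcripts that start further upstream. Capitals mark E-boxes (CANNTG, the motif bound by MyoD, myogenin and other basic helix-loop-helix factors).
Lama2: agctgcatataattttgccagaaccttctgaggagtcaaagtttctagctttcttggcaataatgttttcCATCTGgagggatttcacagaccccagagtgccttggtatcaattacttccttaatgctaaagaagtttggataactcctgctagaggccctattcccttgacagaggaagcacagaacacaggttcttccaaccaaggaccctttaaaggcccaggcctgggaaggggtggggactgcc
Lama5: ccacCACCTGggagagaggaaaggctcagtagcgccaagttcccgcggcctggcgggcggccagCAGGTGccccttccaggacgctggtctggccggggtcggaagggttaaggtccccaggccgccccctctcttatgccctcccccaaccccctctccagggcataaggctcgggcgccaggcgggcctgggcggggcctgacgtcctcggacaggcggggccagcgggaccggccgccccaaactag
Lamb3: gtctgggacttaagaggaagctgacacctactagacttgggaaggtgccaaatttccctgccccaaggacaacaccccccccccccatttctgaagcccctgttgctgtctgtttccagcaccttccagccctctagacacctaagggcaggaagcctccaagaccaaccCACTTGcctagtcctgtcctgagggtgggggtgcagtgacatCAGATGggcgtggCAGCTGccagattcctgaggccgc
The E-box, which reads the same on both strands, was found at 1 place before Lama2, 2 before Lama5 and 3 before Lamb3. Of all 32851 promoter windows, 66.2% held at least 1 in the 250 bases before the start. A GC box (GGGCGG, both strands) was found at 4 places before Lama5 and at 0 before Lama2 and Lamb3, against 32.7% of all windows with at least 1, and no E-box overlapped a GC box. The GC content was 47.2% before Lama2, 58.8% before Lamb3 and 72.4% before Lama5, with a median of 52.4% over all windows. Such matches are letters only and say nothing of binding.

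The first comparison asked which laminin chain transcripts these cells held. Levels of different genes are compared per length, as scaled reads per kb of exon, with all exons of a gene in GENCODE M21 merged. Lamb1, the widely used beta chain, was the highest in each of the 6 libraries, at 628 per kb on average (range 390 to 866). Lamc1, the gamma chain of most laminins, followed at 357 (214 to 475), and Lamb2, the beta chain of synaptic and kidney basement membranes, at 239 (142 to 338). Lama5, an alpha chain of many basement membranes, averaged 161 (84.4 to 288). Lamb3, a beta chain best known from the laminin that anchors skin epithelium, averaged 160 (44.6 to 302). Lama2, the alpha chain of the main laminin around muscle fibres, averaged 94.4 (38.0 to 213). Ranges of neighbours in this order overlapped, though Lamc1 was second to Lamb1 in each library on this scale. Below Lamc1 the order of these genes changed between libraries.

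The other alpha chains were lower. Lama4, which lacks the N-terminal domain of the longer alpha chains and is known from vessels and nerves, averaged 13.7 per kb (5.58 to 32.3) and was below Lama2 and Lama5 in each library. Lama1, the alpha chain of early embryonic basement membranes, averaged 0.797, and Lama3, the alpha chain of the skin laminin, 0.715. These 2 genes were near the detection limit, with 2 to 17 and 2 to 20 reads per library. Lamb3, the partner of Lama3, had 346 to 1748 reads. Lamc3 averaged 1.71 per kb.

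Summed by chain type, the 3 beta chain genes together exceeded the 5 alpha chain genes in each library, by 3.01 to 5.57 times per kb. They exceeded Lamc1 by 2.41 to 3.47 times. Lamc1 exceeded the alpha sum by 1.08 to 1.61 times. The lengths enter these values. The deposited FPKM gave each gene the same share of its chain type as the length of its longest GENCODE transcript did. With the FPKM the ranges were 3.21 to 5.82, 3.19 to 4.64 and 0.942 to 1.26. Lama2 and Lama5 then stood level, at 8.79 and 8.76 FPKM on average, and Lama2 was the higher in control 1, knockout 1 and knockout 3. By FPKM, Lamc1 no longer exceeded the alpha sum in control 3, and in control 1 Lamb3 was above Lamc1 (19.7 and 17.4 FPKM). The average of Lamb3 was 11.7 FPKM, above those of Lama2 and Lama5.

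**Figure D1:**
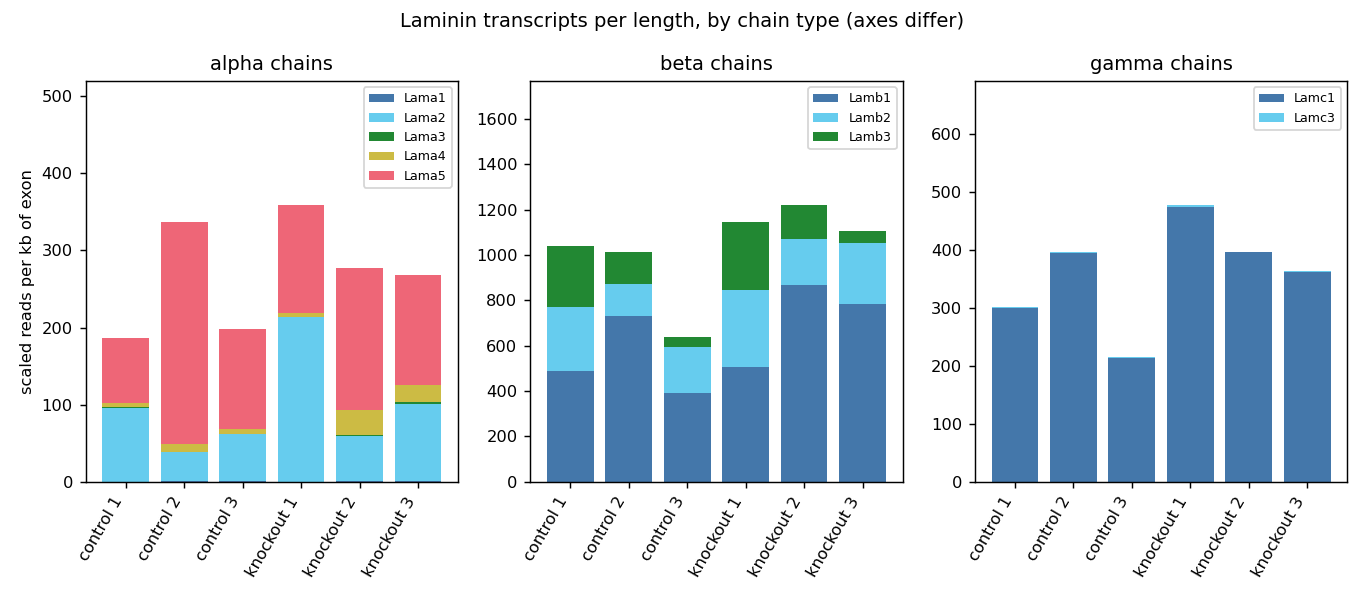
Scaled reads per kb of exon (y axis) in each of the 6 libraries (x axis), stacked by gene for alpha, beta and gamma chains; Lamc3 is shown with Lamc1. Lama5 and Lama2 make up most of the alpha chains in changing proportion, with Lama5 at 288 per kb in control 2 and Lama2 at 213 in knockout 1.

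Alpha chain use differed between libraries. Lama2 made up 51.4%, 11.3% and 30.5% of alpha chain transcripts per kb in control 1, 2 and 3, and 59.5%, 20.9% and 37.6% in knockout 1, 2 and 3. Lama5 made up 45.2%, 85.6% and 65.6% in the controls and 38.8%, 66.3% and 53.1% in the knockouts. The Lama2 share was thus highest in number 1 and lowest in number 2 under both labels. It was also higher in the knockout than in the control of each number. Among beta chains, Lamb1 took 44.3% to 72.1% and Lamb3 4.92% to 26.3%.

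The next comparison asked whether laminin transcripts differed between libraries labelled knockout and control. No chain gene passed the test (limma on log2 of scaled reads + 1, Benjamini-Hochberg adjusted p = 1.0 for each of the 9). Over all 20344 genes tested, 0% passed. An unadjusted p under 0.05 was reached by 0 of the 9, against 1.15% of all genes higher and 0.211% lower in the knockouts. With edgeR, DESeq2 and limma-voom on the recovered reads, 0 of the 9 passed as well. An unadjusted p under 0.05 was reached by Lama4 alone in edgeR and in DESeq2, and by 0 of these genes in limma-voom. The Benjamini-Hochberg adjusted p of Lama4 was 1.0 in edgeR and 0.9999 in DESeq2 (0.0358 and 0.0174 before adjustment). The groups overlapped for all 9 genes, whereas they did not for 2.65% of all genes on the higher and 2.11% on the lower side.

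All 9 fold changes lay on the higher side in the knockouts, where 53% of all genes lay. The count was 8 without the library labelled knockout 1, 7 without control 3, 8 without control 1 or knockout 2, and 9 without control 2 or knockout 3. Lamb3 or Lama5 was on the lower side in those with fewer than 9, and with edgeR and DESeq2 Lama5 was. Their median log2 fold change was 0.47, beside 0.03 over all genes tested. Within numbers 1, 2 and 3 the median difference of the 9 was 0.27, 0.53 and 0.73 on the log2 scale, beside 0.02, 0.00 and 0.01 over all genes. Of the 9, 5 were higher in the knockout in all 3 numbers (Lama2, Lamb1, Lamb2, Lamb3 and Lamc1) and 0 were lower in all 3. Of all genes, 12.2% were higher and 12.1% lower in all 3. Some of these differences were small, such as 1.00 times for Lamc1 in number 2 and 1.05 times for Lamb3 in number 2.

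**Figure D2:**
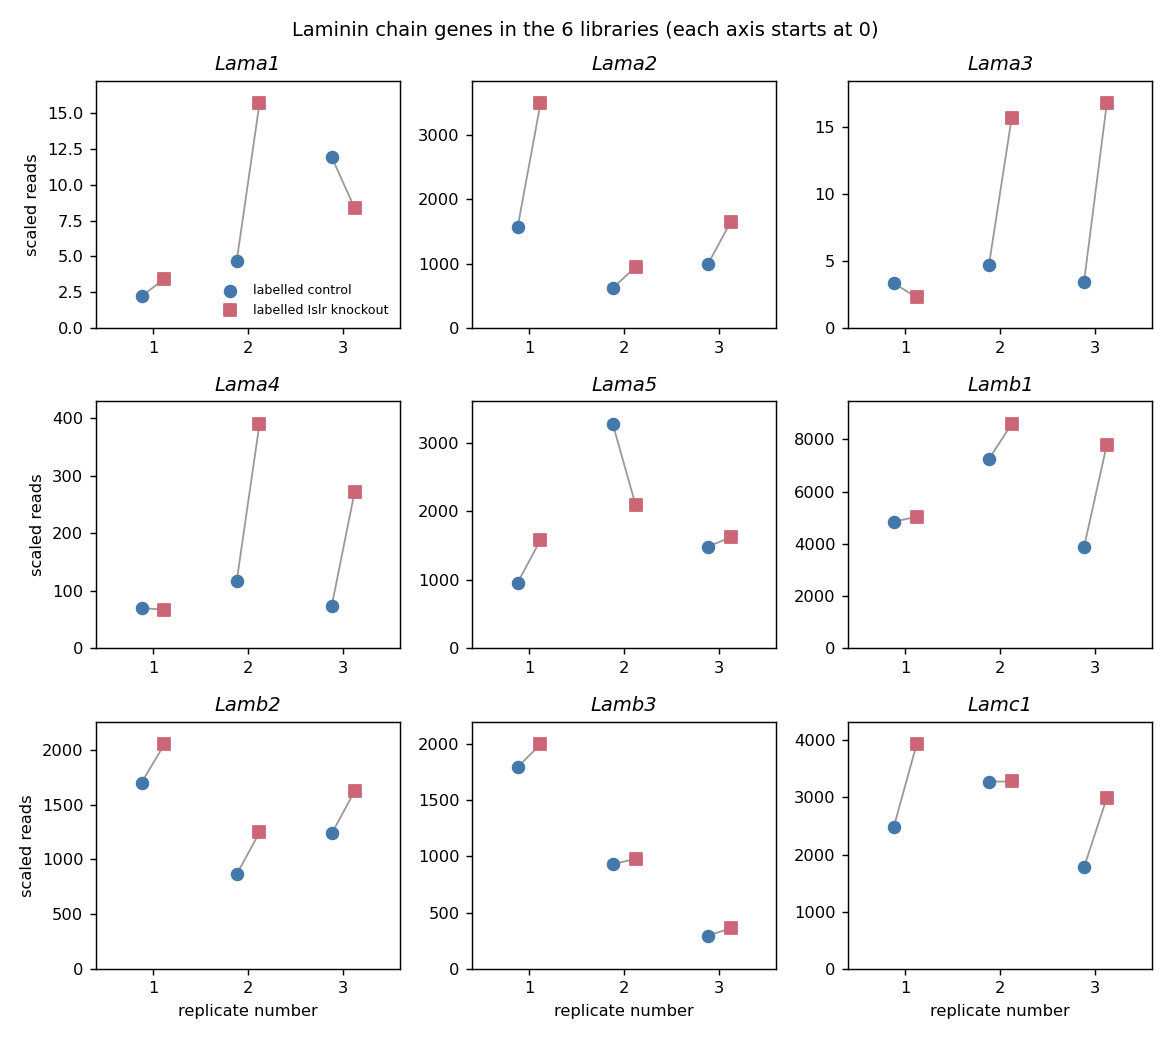
Scaled reads (y axes, each from 0) of the 9 laminin chain genes by replicate number (x axis), with circles for libraries labelled control, squares for those labelled Islr knockout and a line joining the same number. Lama2 and Lamb2 are higher in the knockout of each number, and Lamb3 is highest in number 1 (1793 and 1994) and lowest in number 3 (294.9 and 359.9) in both groups.

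Among the alpha chains, Lama2 stood at 1567, 620.0 and 989.5 scaled reads in control 1, 2 and 3 and at 3485, 945.6 and 1645 in knockout 1, 2 and 3. The knockout was higher in each number, by 2.23, 1.53 and 1.66 times, yet knockout 2 was below control 1 and 3. The log2 fold change was 0.83 ± 0.51 (SE), with a 95% interval from -0.33 to 2.00. It was 0.34 without knockout 1, 0.50 without control 2 and 1.28 without knockout 2. With the replicate number as a block the interval ran from 0.38 to 1.29 (limma unadjusted p = 0.00262, adjusted p = 0.9204). Lama2 (ENSMUSG00000019899) lies on chromosome 10 from 26980036 to 27619758 on GRCm38. An antisense gene shares 631 of its 16338 exon bases, and the labels used here do not say whether counting used strand.

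Lama4 stood at 70.0, 116.5 and 74.1 scaled reads in the controls and at 67.3, 390.3 and 272.0 in the knockouts. Knockout 2 and 3 were above all controls, while knockout 1 was the lowest of the 6 libraries. The log2 fold change was 1.18 ± 0.63 (SE), with an interval from -0.25 to 2.61. With the block it ran from 0.25 to 2.11 (limma unadjusted p = 0.0182, adjusted p = 0.9204). Lama2 and Lama4 were the 2 of the 9 with an unadjusted p under 0.05 in the fit with the block, where 3.66% of all genes were at this level and higher. In the authors' deposited table Lama4 had a log2 fold change of 1.49, p = 0.0151 and adjusted p = 0.9998. It was named under 18 of the 1475 GO terms of the authors' deposited table, and the other 8 laminin genes under 0. Without the library labelled knockout 1 the limma log2 fold change of Lama4 was 1.93, and without knockout 2 it was 0.67. Leaving out 1 library, without the block, gave no limma adjusted p of Lama4 under 0.9976. Its lowest adjusted p over all alternatives was 0.2376 (limma with the block, both libraries of number 1 left out).

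Some markers of other cell types were also highest in knockout 2 and 3. Pecam1, of endothelium, stood at 26.7, 167.8 and 101.4 in the controls and 27.4, 328.4 and 198.4 in the knockouts. Sox10, of Schwann cells, stood at 51.1, 83.9 and 43.5 against 31.9, 293.4 and 276.2, and Pdgfra, of fibro-adipogenic cells, at 91.1, 85.1 and 165.3 against 83.3, 296.1 and 417.6. Of 15 endothelial markers, 14 lay on the higher side in the knockouts, where 53% of all genes lay. The summed level of the 15 ran from 1159 to 1599 in the controls and from 1024 to 3351 in the knockouts. Of 13 Schwann and glial markers, 9 lay on the higher side. Their sums were 3036, 1208 and 2522 in control 1 to 3 and 3695, 2749 and 2893 in knockout 1 to 3. Unlike Sox10, this sum was highest in knockout 1 and next highest in control 1. Of 14 tested fibro-adipogenic markers, 12 lay on the higher side. Their sums were 11021, 6792 and 17613 in control 1 to 3. In knockout 1 to 3 they were 9712, 15465 and 18222, so that control 3 was above knockout 2. Of 12 pericyte and smooth muscle markers, 7 lay on the higher side, beside 53% of all genes. Their sums were 106000, 28357 and 79644 in control 1 to 3 and 92430, 39260.5 and 39858 in knockout 1 to 3. Pecam1, Sox10 and Pdgfra were above 0 in each library. In any library, 0 endothelial, at most 1 glial and at most 3 fibro-adipogenic markers were at 0. Their part in the level of Lama4 was not tested. In such bulk samples, fewer cells of a type and less RNA per cell cannot be told apart.

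Lama5 stood at 961.0, 3277 and 1485 in the controls and at 1582, 2092 and 1621 in the knockouts, so that control 1 was the lowest and control 2 the highest of the 6. Its log2 fold change was 0.07 ± 0.42 (SE), with an interval from -0.89 to 1.02, and it was 0.55 without control 2. It turned negative without control 1 (-0.33), control 3 (-0.02) or knockout 2 (-0.06), and with edgeR (-0.10) and DESeq2 (-0.11). Lama1 stood at 2.22, 4.66 and 11.9 in the controls and 3.42, 15.7 and 8.37 in the knockouts. Lama3 stood at 3.33, 4.66 and 3.41 in the controls and 2.28, 15.7 and 16.7 in the knockouts. Like Lama4, Lama3 was high in knockout 2 and 3 only, with 17 and 20 reads beside 2 to 4 in the other libraries. Epcam, a marker of epithelium, stood at 2.22, 2.33 and 1.71 in the controls and 0, 15.7 and 8.37 in the knockouts. Of 13 epithelial markers, 12 lay on the higher side, beside 53% of all genes. Their sums were 914.3, 2299 and 715.1 in control 1 to 3 and 561.3, 2878.5 and 2451.5 in knockout 1 to 3. Unlike Lama3 and Epcam, this sum was nearly as high in control 2 as in knockout 3. Between 3 and 7 of them were at 0 in a control, and between 0 and 3 in a knockout. Their part in the level of Lama3 was not tested.

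**Figure D3:**
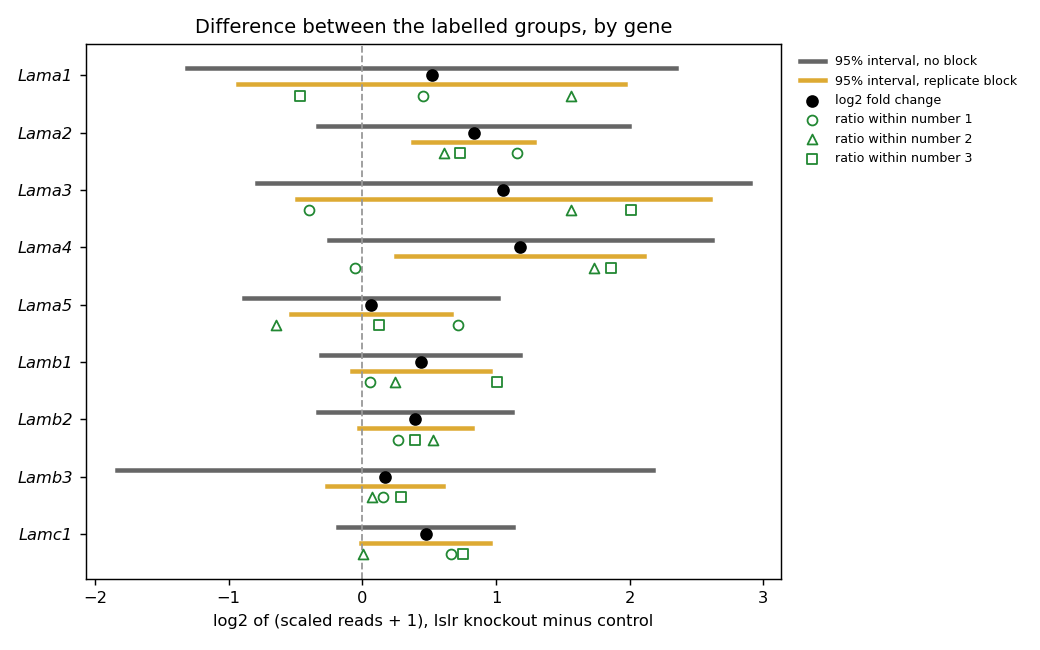
Difference in log2(scaled reads + 1) between Islr knockout and control (x axis) for each laminin chain gene (y axis): the fold change (black point), its 95% interval without (grey) and with (yellow) a replicate block, and the difference within number 1, 2 and 3 (open symbols). All unblocked intervals reach across 0, from -1.83 to 2.17 for Lamb3, which the block narrows to between -0.26 and 0.60.

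Among the beta chains, Lamb1 stood at 4848, 7241 and 3868 in the controls and at 5034, 8589 and 7790.5 in the knockouts. Its difference came mainly from number 3, where the knockout was 2.01 times the control, beside 1.04 and 1.19 times in numbers 1 and 2. The log2 fold change was 0.44 ± 0.33 (SE). It was 0.23 without control 3, 0.28 without knockout 2, 0.67 without knockout 1 and 0.68 without control 2. Lamb2 stood at 1703, 863.5 and 1238 in the controls and at 2052, 1246 and 1623 in the knockouts, with ratios of 1.21, 1.44 and 1.31 in the 3 numbers. Its log2 fold change of 0.40 ± 0.32 (SE) had an interval from -0.33 to 1.12, or from -0.03 to 0.82 with the replicate block. It was 0.15 without control 2, 0.22 without knockout 1 and 0.64 without control 1. Lamc1, the partner of both, stood at 2482, 3275 and 1774 in the controls and at 3928, 3279 and 2990.5 in the knockouts. The knockout was higher by 1.58 and 1.69 times in numbers 1 and 3 and level in number 2 (1.00). Its log2 fold change was 0.47 ± 0.29 (SE), with an interval from -0.18 to 1.13, and it was 0.24 without control 3. Control 3 had the lowest level of both Lamb1 and Lamc1.

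Lamb3 stood at 1793, 929.9 and 294.9 in control 1, 2 and 3 and at 1994, 976.1 and 359.9 in knockout 1, 2 and 3. Each knockout was within 1.05 to 1.22 times its control, while the libraries spanned 6.76 times. The log2 fold change was 0.17 ± 0.84 (SE). It turned negative without control 3 (-0.54) or knockout 1 (-0.41), fits in which the other library of that number stays unmatched, and ran from 0.10 to 0.82 without any of the other libraries. Lamb3 (ENSMUSG00000026639) lies on chromosome 1 from 193207699 to 193343878, and its span holds Hsd11b1 and G0s2 on the other strand, with which it shares 0 exon bases. Lamc3 stood at 13.3, 3.496 and 7.67 in the controls and 14.8, 7.38 and 15.9 in the knockouts. Control 2 was its lowest library.

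The last comparison, added after the data were seen, asked how laminin chains differed between replicate numbers, with the group kept in the model. The labels do not say what a number marks. Lamb3 and Lama2 passed (limma F test, adjusted p = 0.00521 and 0.0211), that is 2 of the 9 genes, beside 6.35% of all genes. The log2 difference of Lamb3 between number 3 and number 1 was -2.53 (SE 0.23, limma adjusted p = 0.00437, a contrast called for 2.89% of all genes). Between number 3 and number 2 it was -1.55 (SE 0.23, limma adjusted p = 0.0201, 4.2% of all genes). For Lama2 the log2 difference between number 2 and number 1 was -1.61 (SE 0.24, limma adjusted p = 0.0127, 3.23% of all genes). Replicate number took 99.2% of the sum of squares of Lamb3 and 69.9% of that of Lama2, and the group took 0.7% and 27.9%. The median over the 9 genes was 66.6% for number and 27.4% for group, beside 63.5% and 7.8% over all genes tested.

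These calls rest on 2 libraries per number, and leaving 1 out removes a pair. For Lamb3 the limma adjusted p was then 0.0538 without control 3 and 0.0582 without knockout 1, and 0.00956 to 0.0406 without another library. For Lama2 it was 0.0924, 0.0586 and 0.105 without control 1, 2 and 3, 0.211 without knockout 1, 0.0332 without knockout 2 and 0.085 without knockout 3. The libraries also differed in differentiation. The summed level of 20 differentiation genes was 575163, 7096 and 296757 in control 1, 2 and 3 and 622073, 18716 and 63000 in knockout 1, 2 and 3. Lama2 was lowest in control 2, where this sum was lowest, and highest in knockout 1, where it was highest. Lamb3 was highest in knockout 1 and next highest in control 1, as was the sum. It was lowest in control 3, where the sum was the third highest. The part of differentiation in these levels was not tested.

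**Figure D4:**
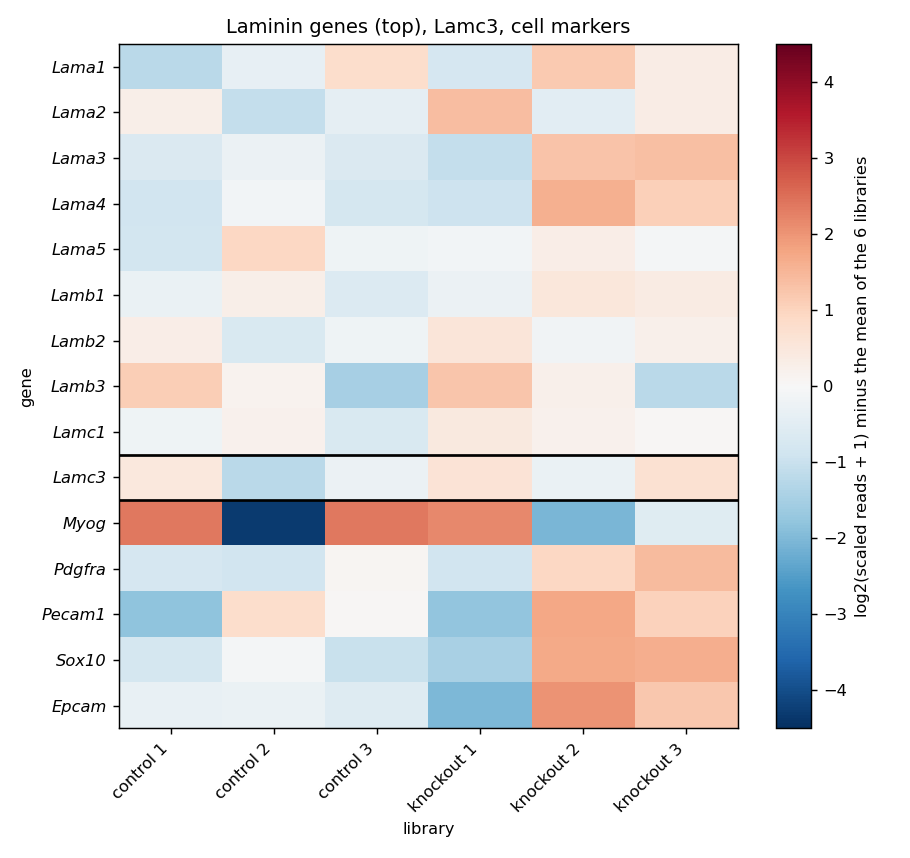
Level of each gene (rows) in each library (columns) as log2(scaled reads + 1) minus the gene's mean over the 6 libraries, from blue (lower) to red (higher), for the 9 laminin genes, Lamc3 and 5 cell markers. Lama3 and Lama4 are red in knockout 2 and 3, as are Pdgfra, Pecam1 (also in control 2), Sox10 and Epcam, while Lamb3 is red in both libraries of number 1.

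Within the family, likeness of pattern was measured as the mean absolute difference of centred log2 levels over the 6 libraries, where 0 is the same pattern. Lama3 and Lama4 were the closest pair, at 0.21, though the profile of Lama3 rests on only 2 to 20 reads per library. Lamb1 and Lamc1 were closest to each other at 0.27, and Lama2 and Lamb2 at 0.32. Lama5 was closest to Lamb1 at 0.41, and Lama1, with only 2 to 17 reads per library, to Lama4 at 0.59. Lamb3 had no close partner, its nearest being Lamc1 at 0.71. Among 10411 genes with a mean of at least 100, Esyt2, Ankib1 and Cpd had the patterns most like Lamc1 (0.05, 0.06 and 0.07). For Lama5 these were Smo, Fgd1 and Rnf145 (0.11, 0.11 and 0.13). With so many more candidates than the 8 other members, smaller values can arise from the number of genes alone. They say nothing of likeness within the family. Lamb1 ranked 1786 in likeness to Lamc1.

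Partners of laminins were taken from lists drawn up with earlier results of these data known. Of 24 basement membrane genes, 0 passed (limma), and 19 lay on the higher side in the knockouts, where 53% of all genes lay. The median log2 fold change of the 24 was 0.28 (0.47 without control 2). An unadjusted p under 0.05 was reached by 2, both higher, beside 1.15% of all genes at this level and higher. With the replicate block 5 reached it, among them Nid1 (limma unadjusted p = 0.0102, adjusted p = 0.9204). In that fit 3.66% of all genes were at this level and higher. Agrn, the proteoglycan agrin that binds laminin and dystroglycan, stood at 1021, 1204 and 904 in the controls and 1534, 1533 and 2816 in the knockouts, without overlap. Of all genes, 2.65% were higher in the knockouts without overlap. Col4a3, a minor type IV collagen chain, stood at 4.44, 1.17 and 0 in the controls and 15.97, 5.54 and 13.4 in the knockouts. Nid1, the link between laminin and type IV collagen, was higher in each number, at 2226, 4238 and 5756 in the knockouts and 1372, 3529 and 1820 in the controls. Hspg2, which encodes perlecan, was the most abundant at 9732 ± 3164 (SD, n = 3) in the controls and 13899 ± 7134 in the knockouts. The limma adjusted p was 1.0 for these 4 genes.

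Of 14 laminin receptor genes, 0 passed, and 11 lay on the higher side, beside 53% of all genes. The median log2 fold change of the 14 was 0.19. Itga2, a collagen and laminin receptor subunit, had the smallest p (unadjusted p = 0.0175, limma adjusted p = 1.0). It stood at 9.999, 65.3 and 31.5 in the controls and 53.6, 214.0 and 400.1 in the knockouts. Itga1, a subunit of the same class, stood at 55.5, 114.2 and 89.5 in the controls and 67.3, 294.3 and 236.0 in the knockouts. Of the 14, Itga2 alone had an unadjusted p under 0.05, and 2 did with the replicate block, Itga2 and Itga1 (limma unadjusted p = 0.000248 and 0.0154, adjusted p = 0.9204 for both). Of all genes, 1.15% were at this level and higher without the block and 3.66% with it. Itgb1, the beta subunit shared by most laminin-binding integrins, was the most abundant, at 23012 ± 8704 (SD, n = 3) in the controls and 28681 ± 5008 in the knockouts.

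Between replicate numbers, 4 of the 14 receptor genes passed the F test: Itga7, Itgb4, Bcam and Itga2 (limma adjusted p = 0.0111, 0.027, 0.0192 and 0.0479), beside 6.35% of all genes. Itga7, Itgb4, Bcam and Dag1 were chosen for naming after their values were seen. Itga7, which pairs with Itgb1 as the laminin receptor of muscle cells, stood at 26332, 8724 and 11468 in control 1, 2 and 3 and 26694, 7988 and 11340 in knockout 1, 2 and 3. It was highest in number 1 and lowest in number 2, the order of numbers seen for Lama2. Itgb4, the hemidesmosome integrin subunit that binds the skin laminin, stood at 2746, 3019 and 825 in the controls and 2600, 2875 and 1347 in the knockouts, lowest in number 3 as was Lamb3. Bcam, a receptor for the laminin alpha chain that Lama5 encodes, stood at 468.8, 58.3 and 749.2 in the controls and 730.2, 143.0 and 454.5 in the knockouts, lowest in number 2. Itga2 was lowest in number 1 within each group. Dag1, which encodes dystroglycan, did not pass (limma F test, adjusted p = 0.109) and stood at 5181, 3101 and 7515.5 in the controls and 9098, 3262 and 4973 in the knockouts. Whether these orders belong together was not tested.

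The enzymes that put the laminin-binding sugar on dystroglycan varied little. Of 18 such genes 0 passed, and 12 lay on the higher side, beside 53% of all genes. The median log2 fold change of the 18 was 0.05, or 0.00 to 0.10 with 1 library left out. Pomgnt1, which extends the sugar, was the most abundant at 1584 ± 97.7 (SD, n = 3) in the controls and 1613 ± 115 in the knockouts. Pomt2, which starts it, stood at 428 ± 62.3 and 517 ± 23.8, and Dolk, a dolichol kinase, at 470 ± 19.0 and 549 ± 97.1. Of 10 protease genes that can cut laminin or process its chains, 9 were tested and 0 passed. The log2 fold change of 8 was positive, beside 53% of all genes, with a median over the 9 of 0.76. Without knockout 3 this median was 0.12, without control 2 it was 0.46, and without knockout 1 it was 1.164. Within numbers 1, 2 and 3 the median difference was -0.53, 1.70 and 1.51. Tll1, a tolloid-like protease, stood at 70.0, 75.7 and 91.2 in the controls and 43.4, 287.8 and 455.3 in the knockouts. Ctss, a cathepsin, stood at 34.4, 15.2 and 38.4 in the controls and 20.5, 56.3 and 111.3 in the knockouts, and Tll2 had 0 to 10 reads per library. Mmp14, a membrane-bound matrix protease, was the most abundant, at 4064 ± 1009 (SD, n = 3) in the controls and 4397 ± 992 in the knockouts.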

How the data were processed

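RNA-seq libraries were made from total RNA, per the labels' protocols. Tools listed in the submitters' processing notes, without their role, are Trimmomatic, HISAT2 (version 2.0.5), HTSeq, edgeR (version 3.18.1) and DESeq2 (version 1.16.1). Genome build, annotation and strand setting were not given in the sources used here. All 9 genes had the same coordinates in GENCODE M21 on GRCm38.

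The deposited signal values are gene counts that the authors divided by 1 size factor per library. After dropping 36 lines that did not begin with a gene identifier, 100.0% of values came out as whole reads within 0.01, and the reads of 480 of 480 genes shared with a deposited table of raw counts were equal to it. The column of control 1 carries a name with 2 digits exchanged against its label. The deposited FPKM were used for levels per length. The deposited log2 fold changes and p-values are the authors' own, per the file headers, as are the p-values of their GO terms. Per-sample values in 6 further columns stayed out.

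Log2(scaled reads + 1) of 20344 genes with a mean of at least 1 was tested with limma 3.58.1 (trend, robust), two-sided, with Benjamini-Hochberg adjustment and a threshold of 0.05. Alternatives used edgeR 4.0.16, DESeq2 1.42.0, limma-voom, other scalings, pseudocounts and filters, a replicate block, and libraries left out. On simulated data with 200 genes changed by 2 on the log2 scale among 20674 genes, limma recovered 100% with 13 false calls. The simulated libraries were independent, at a dispersion of 0.05, without the differences between replicate numbers seen here. Only genes of higher counts were changed. The simulation checks the code and does not show what changes could be found in these data. Deviations from group means of same-numbered libraries correlated at 0.689, 0.633 and 0.625 over 14280 genes. The numbers were therefore taken to pair the libraries in the differences within numbers and in the fits with a replicate block. This pairing comes from the data. The main test between the labelled groups left it out.

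The members and lists were chosen with earlier results of these data known. Genes were named by rule: the 9 members, Islr, 9 cell markers, and from each partner list the 3 genes of smallest p and the most abundant, and by likeness of pattern. Some genes that the rule names are not reported here. The test between replicate numbers and the levels by FPKM were added after the data were seen.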

Additional observations from a re-analysis of the deposited data

How the results depend on the processing

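No laminin gene passed the threshold under any of the 25 alternatives run. Over all genes, 7 were called by DESeq2 with the replicate block and 0 by each other fit. With the replicate block, limma called 0 laminin genes, and no adjusted call changed. At an unadjusted p under 0.05 the block raised the laminin genes from 0 to 2, the basement membrane genes from 2 to 5 and the receptors from 1 to 2. Over all 20344 genes tested it raised the count from 276 to 933. The sign of the log2 fold change stayed the same throughout for Lama2, Lama3, Lama4, Lamb1, Lamb2 and Lamc1. For Lama5 it was -0.102 with edgeR and -0.112 with DESeq2, -0.333, -0.02 and -0.062 without control 1, control 3 and knockout 2, and -0.26 without both libraries of number 1, with or without a replicate block; leaving out 1 library gave -0.333 to 0.551. For Lamb3 it was -0.539 without control 3 and -0.413 without knockout 1, in a range of -0.539 to 0.82. For Lama1 it was -0.004 without both libraries of number 2, with or without a block. The cause was not tested. The median of the basement membrane genes ran from 0.299 to 0.471 (without control 2) when 1 library was left out. With the length of the longest transcript in place of merged exons, the alpha sum of the knockouts was 408 per kb, and the beta sums were 1352 and 1754 in controls and knockouts. The ratio of beta to gamma chains was then 4.068 (4.069 by FPKM) and that of gamma to alpha chains 1.112 by both. The share of each gene in its chain type was the same by both, so the FPKM are not a separate check. The count of laminin genes that differed between replicate numbers was 4 with no filter on low values, and ran from 0 (without control 3 or knockout 1) to 3 (without knockout 2) when 1 library was left out. Lama1 and Lama3, with 2 to 20 reads per library, are limited by depth.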
